A study of Mus musculus with 20 samples.

Results

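The fragile X family of RNA-binding proteins was followed here in mouse abdominal aorta through 4 genes of the 15346 with an annotated transcript in the tables used. They are Fmr1, its paralogs Fxr1 and Fxr2, and Cyfip1, whose protein binds the Fmr1 product. The 4 genes were chosen by name with earlier results of these data known. Fmr1 was selected on its higher level in wild-type (WT) mice given angiotensin II (Ang II) than in WT mice given saline, so that contrast is described for every member without a test. All 4 passed the minimum mean of 1 FPKM (fragments per kilobase of transcript, a level corrected for transcript length and sequencing depth) that left 12643 genes for testing. Of their 40 annotated transcripts, 20 were listed in the WT tables and 17 of these also in the table of knockout (KO) mice given Ang II.

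The study holds 20 libraries in 4 groups of 5: WT mice given saline, WT mice given Ang II (500 ng per kg and minute), and mice labelled KO under each of the same treatments. DAPK1, named in the title of the series, is a calcium/calmodulin-dependent kinase, and the labels give neither the kind of knockout allele, nor the strain, sex or age of the mice, nor the length of the infusion. Libraries are named by their titles, with NS meaning saline and the digits taken as the animal's number. The labels do not say whether animals were processed together, so the p-values measure the spread between these libraries.

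The make-up of the libraries touches every result. Dapk1 itself was at 9.48 to 15.4 FPKM with WT saline, at 3.96 to 19.9 with WT Ang II and at 4.997 to 13.8 with KO Ang II, ranges that overlap, so the KO label is not checked by its RNA. Smooth muscle identity was present throughout, with all 10 contractile markers detected and a summed level of 5692 to 14811 FPKM over the 15 libraries used. Other tissue differed between libraries. Brown adipocyte markers summed to 145 to 3137 FPKM, sympathetic neuron markers to 9.83 to 986 and skeletal muscle markers to 1.54 to 220. The means of these lists are the marker means used as covariates below. Intestinal markers were not evenly spread. The 10 intestinal markers in the tables summed to 4.46 to 8.58 FPKM in WT saline, where 8 were at 0 in every library, to 7.24 to 43.0 in WT Ang II and to 36.5 to 77.3 in KO Ang II. A subset of 7 that was at 0 in all WT saline libraries (Reg3b, Zg16 and 5 Defa genes), chosen with values known, summed to over 1 FPKM in 0 of 5 WT saline, 2 of 5 WT Ang II (WTAngII580 and WTAngII581) and 5 of 5 KO Ang II libraries, here called libraries with intestinal transcripts. These transcripts and the group cannot be told apart between KO Ang II and WT saline. The KO saline table lists 1 transcript of the members, so KO saline enters only where that transcript is described.

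Fmr1 encodes FMRP, an RNA-binding protein with Tudor and KH domains and an RGG box that rides on polyribosomes and represses the translation of the mRNAs it binds. Its loss causes fragile X syndrome. FXR1P and FXR2P, the products of the paralogs, share this domain plan and can form dimers with FMRP, and long isoforms of Fxr1 are typical of striated muscle. CYFIP1 is not an RNA-binding protein of this fold: it links FMRP to the cap-binding factor eIF4E and, in a separate pool, is a subunit of the WAVE complex that starts actin branching. In bulk tissue, fewer cells of a type and less RNA per cell cannot be told apart.

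Fmr1 (ENSMUSG00000000838.17) lies on chromosome X, 68678541 to 68717963, Fxr1 (ENSMUSG00000027680.15) on chromosome 3, 34019943 to 34070322, Fxr2 (ENSMUSG00000018765.5) on chromosome 11, 69632990 to 69653297, and Cyfip1 (ENSMUSG00000030447.15) on chromosome 7, 55841745 to 55932602, all on the plus strand of GRCm38. The exons that set the isoforms apart carry the findings below and are therefore shown first, 5′ to 3′ on the plus strand, from the GENCODE M21 transcripts. In Fmr1 a 63-nt coding exon is present in Fmr1-201 and Fmr1-202 and skipped in Fmr1-206, and a 75-nt coding stretch at the start of a later exon is present in Fmr1-201 and Fmr1-206 and left out of Fmr1-202. Both lengths are multiples of 3.
Fmr1 63-nt exon, chrX:68705861-68705923: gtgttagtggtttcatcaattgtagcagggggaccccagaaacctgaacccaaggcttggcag
Fmr1 75-nt stretch, chrX:68712231-68712305: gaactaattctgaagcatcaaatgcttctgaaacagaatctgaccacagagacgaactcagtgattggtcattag

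In Fxr1, 3 coding segments separate the long isoforms from Fxr1-208, which holds none of them. An 87-nt stretch is in Fxr1-201 and Fxr1-206, an 81-nt exon among the listed transcripts in Fxr1-201 alone, and a 92-nt exon in Fxr1-201 and Fxr1-204. The 92-nt exon is not a multiple of 3 (remainder 2), so it changes the reading frame of what follows. The 81-nt and 92-nt exons are shown because the Fxr1 results below turn on the transcripts that hold them.
Fxr1 81-nt exon, chr3:34064974-34065054: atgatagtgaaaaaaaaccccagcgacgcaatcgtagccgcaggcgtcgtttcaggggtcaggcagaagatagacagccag
Fxr1 92-nt exon, chr3:34068161-34068252: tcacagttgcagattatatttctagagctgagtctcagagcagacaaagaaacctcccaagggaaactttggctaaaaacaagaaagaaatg

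The kinship of the 3 paralogs shows in their gene structure. Coding exons 2 to 10 had the same length in Fmr1-201, Fxr1-208 and Fxr2-201, 9 consecutive exons and 939 nt in all. Over these, Fmr1 and Fxr1 were identical at 71.2% of bases, Fmr1 and Fxr2 at 67.0%, Fxr1 and Fxr2 at 71.8%, and all 3 at 58.0%. Coding exon 4, with 72 nt the exon most alike in all 3 (68.1% identical), is shown with the 23 positions that are not the same in all 3 in capitals.
Fmr1 exon 4, chrX:68695014-68695085: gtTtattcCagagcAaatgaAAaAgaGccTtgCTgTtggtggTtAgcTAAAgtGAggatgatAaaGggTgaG
Fxr1 exon 4, chr3:34046032-34046103: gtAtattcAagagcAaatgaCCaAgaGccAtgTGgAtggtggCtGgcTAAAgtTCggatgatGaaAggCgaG
Fxr2 exon 4, chr11:69641282-69641353: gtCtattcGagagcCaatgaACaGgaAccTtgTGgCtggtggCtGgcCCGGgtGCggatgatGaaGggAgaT

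**Figure D1:**
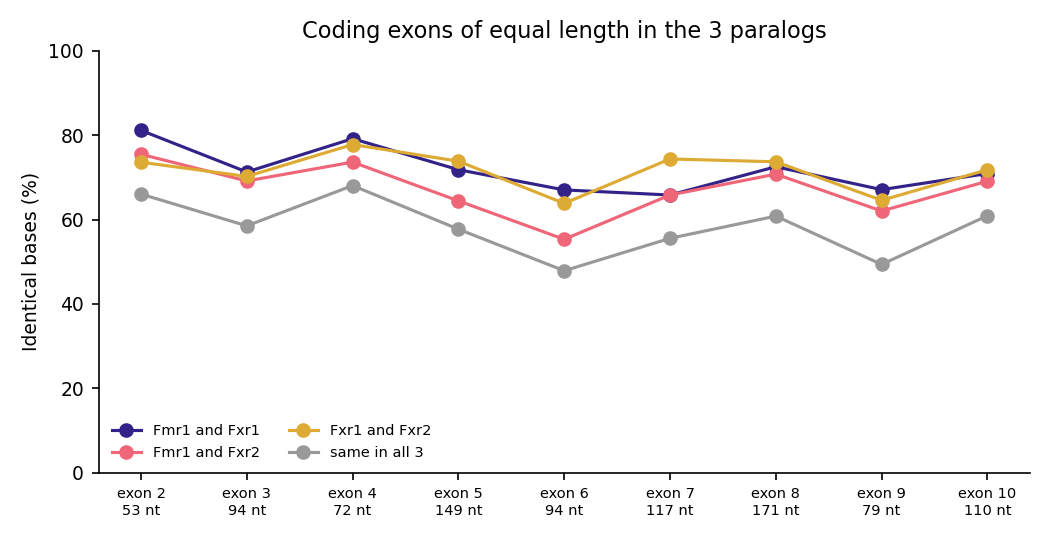
Percentage of identical bases (y axis) in each of the 9 coding exons of equal length in Fmr1, Fxr1 and Fxr2 (x axis, with exon length in nt), for each pair and for all 3. No pair exceeded the 81.1% of Fmr1 and Fxr1 in exon 2, and exon 6 was the least alike, with 47.9% identical in all 3.

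The 4 genes kept nearly one order of level. Over the 15 libraries Fxr2 had a mean of 33.6 FPKM, Cyfip1 25.8, Fxr1 18.9 and Fmr1 6.29, which placed them above 87.6%, 83.5%, 78.1% and 47.5% of the tested genes. The order Fxr2, Cyfip1, Fxr1, Fmr1 held in 14 of the 15 libraries. In the remaining one, WTNS_373, Fxr1 at 24.9 FPKM lay above Cyfip1 at 22.9. The aorta thus held more RNA of both paralogs than of Fmr1 in every library, on the FPKM scale.

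Fmr1 was the member that stood apart in the WT groups. Its gene sum was 3.43, 3.41, 3.52, 5.11 and 5.59 FPKM in WT saline libraries WTNS_369, WTNS_373, WTNS_523, WTNS_547 and WTNS_550. In WT Ang II it was 7.47, 5.97, 8.80, 9.30 and 10.1 in WTAng_II519, WTAng_II536, WTAngII568, WTAngII580 and WTAngII581. The KO Ang II libraries had 6.24, 7.22, 7.72, 5.62 and 4.90 in KOAng_II402, KOAngII537, KOAngII560, KOAngII612 and KOAngII628. Every WT Ang II library lay above every WT saline library, though the lowest of the one, 5.97, was close to the highest of the other, 5.59. KO Ang II libraries overlapped both.

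The group means of Fmr1 were 4.21 ± 1.05 FPKM in WT saline, 8.33 ± 1.63 in WT Ang II, with 6.34 ± 1.15 in KO Ang II (SD, n = 5). WT Ang II was 1.98-fold WT saline by the means, a log2 difference of FPKM + 1 of 0.84. Of all tested genes, 0.997% had groups that did not overlap in that contrast and 0% passed limma at an adjusted p under 0.05 (618 genes had an unadjusted p under 0.05). Nothing is read from these shares, since Fmr1 was selected on the same contrast.

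No member passed the test between KO Ang II and WT Ang II, the comparison of the genotype labels under the infusion. Fmr1 had a difference of -0.34 (SE 0.17, 95% interval -0.70 to 0.02, limma adjusted p = 0.630). Fxr1 had -0.20 (SE 0.12, interval -0.46 to 0.06, adjusted p = 0.648), Fxr2 -0.13 (SE 0.089, interval -0.32 to 0.06, adjusted p = 0.665) and Cyfip1 -0.08 (SE 0.12, interval -0.33 to 0.17, adjusted p = 0.846). The Fmr1 sum takes transcripts not listed for KO Ang II as 0: its difference was -0.15 with them at 0.5 FPKM, and -0.56 among libraries with intestinal transcripts. Over 10 other settings Fxr2 ranged from -0.15 to -0.06 and Cyfip1 from -0.13 to 0.05, and no member passed. So 0 of the 4 members passed, beside 0% of all tested genes (1003 had an unadjusted p under 0.05, none of them a member). Without WTAngII580, 7 genes passed, and 2 without WTAngII581. No member had groups without overlap, against 1.12% of all genes.

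KO Ang II was also placed against WT saline, a comparison that differs in both genotype and infusion. Fmr1 was 1.50-fold WT saline by the means, with a difference of 0.50 (SE 0.17, interval 0.14 to 0.86) and an unadjusted p of 0.0100 in limma, and it did not pass over all genes (adjusted p = 0.413). With only transcripts listed for all 15 libraries in the sum, the Fmr1 difference was 1.01 (adjusted p = 0.0551). The other differences were -0.19 for Fxr1 (adjusted p = 0.742), -0.18 for Fxr2 (adjusted p = 0.647) and 0.08 for Cyfip1 (adjusted p = 0.909). Over 9 other settings Fxr1 ranged from -0.29 to -0.12 and Cyfip1 from -0.02 to 0.13. Thus 0 of 4 members passed beside 0.103% of all genes, and 0 of 4 had groups without overlap beside 1.83% of all genes. Each of these comparisons shares a WT group with the contrast on which Fmr1 was selected, so neither Fmr1 value is independent of that selection.

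**Figure D2:**
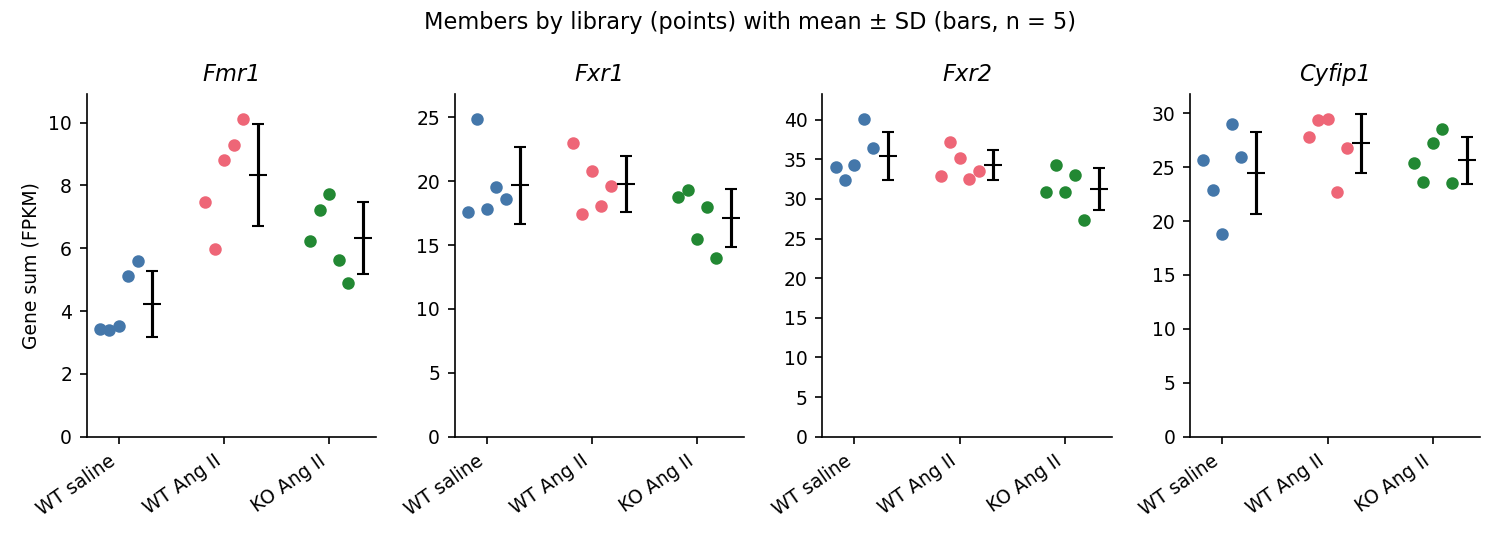
Gene sum in FPKM (y axis, from 0) of each member in the 3 groups, with 1 point per library and mean ± SD at the right of each group (n = 5). Fmr1 in WT Ang II (5.97 to 10.1) lies above WT saline (3.41 to 5.59), and the groups of Fxr1, Fxr2 and Cyfip1 overlap.

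The mean Fmr1 sum was higher in WT Ang II and KO Ang II than in WT saline, though the KO Ang II difference did not pass. By the means, the higher sums lay in 1 transcript. The others together had lower means, with those not listed for KO Ang II taken as 0 there. Fmr1-202, the coding isoform that holds the 63-nt exon and lacks the 75-nt stretch, was at 0.571, 1.87, 0.678, 1.10 and 2.06 FPKM in WTNS_369, WTNS_373, WTNS_523, WTNS_547 and WTNS_550. It was at 7.14, 4.05, 6.73, 7.82 and 8.29 in WTAng_II519, WTAng_II536, WTAngII568, WTAngII580 and WTAngII581. In KOAng_II402, KOAngII537, KOAngII560, KOAngII612 and KOAngII628 it was at 5.10, 5.91, 6.41, 5.10 and 3.98. Every WT Ang II library and every KO Ang II library lay above every WT saline library. Over all transcripts fitted below, 0.928% had no overlap between WT Ang II and WT saline, and 1.31% between KO Ang II and WT saline. Fmr1-202 is not listed for KO saline, and the WT comparison is the one on which Fmr1 was selected. The values rested on 147 to 561 reads per library in WT saline, from 968 to 2362 in WT Ang II and 1135 to 1888 in KO Ang II.

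The means of Fmr1-202 were 1.26 ± 0.680 FPKM in WT saline, 6.81 ± 1.66 in WT Ang II, with 5.30 ± 0.927 in KO Ang II (SD, n = 5). WT Ang II was 5.42-fold and KO Ang II 4.22-fold WT saline by the means. The other listed Fmr1 transcripts together went the other way in their means: 2.96 ± 0.930 FPKM in WT saline (range 1.54 to 4.01), 1.52 ± 0.703 in WT Ang II (range 0.327 to 2.06) and 1.04 ± 0.333 in KO Ang II (0.517 to 1.32), for which 3 of the 5 transcripts are listed. Fmr1-202 therefore held 45.0% ± 17.6 of the sum over transcripts listed for all 15 libraries in WT saline, 87.0% ± 7.18 in WT Ang II, with 83.7% ± 4.03 in KO Ang II (SD, n = 5). How the authors divided reads among overlapping transcripts of a gene is not given in the sources used here, and Fmr1-202 shares most of its sequence with Fmr1-201 and Fmr1-206.

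Over the 29096 transcripts listed for all 15 libraries with a mean of at least 0.5 FPKM, a fit that was added after the gene sums were seen, Fmr1-202 had a difference of 1.81 between WT Ang II and WT saline, described without a test. In that contrast 0.00687% of transcripts passed and 0.928% had groups without overlap, as Fmr1-202 had; nothing is read from these shares. Against WT saline, Fmr1-202 in KO Ang II was 1.52 higher (SE 0.23, limma adjusted p = 0.0261), and higher in 5 of 5 libraries. This comparison reuses the WT saline libraries of the contrast on which Fmr1 was selected, so the call is not independent of that selection. That call held in 1 of 10 fits that left out 1 library (the one without WTNS_550), with adjusted p from 0.0443 to 0.109. In that comparison 0.055% of transcripts passed and 1.31% had groups without overlap. Between KO Ang II and WT Ang II the difference of Fmr1-202 was -0.29 (adjusted p = 0.808), and the difference in its share of the gene was -3.28 percentage points (exact permutation test over 5 against 5, two-sided, p = 0.413, adjusted over the 4 members 0.550). The smallest p this test can give is 0.00794.

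Fmr1-206, the coding isoform that skips the 63-nt exon, showed the opposite pattern. It was at 0.774, 0.613, 1.19, 1.11 and 0.951 FPKM in WTNS_369, WTNS_373, WTNS_523, WTNS_547 and WTNS_550. In WT Ang II it was at 0.0907, 0.166, 0.181, 0.109 and 0.220 in WTAng_II519, WTAng_II536, WTAngII568, WTAngII580 and WTAngII581. Every WT saline library was thus above every WT Ang II library, with 157 to 320 reads against 23 to 62, a contrast described without a test. It is also the contrast on which Fmr1 was selected. Among transcripts listed for WT, none stayed below 0.5 FPKM in both group means, and Fmr1-206 reached that level in WT saline alone. Its listing therefore rests on the group where it was high. How often such transcripts separate the WT groups was not counted, so nothing is read from the separation. Fmr1-206 is not listed for KO Ang II. Transcripts in the WT tables alone had WT Ang II means below 0.5 FPKM, and those in both tables at least 0.5 in one of the Ang II groups, so an unlisted transcript may have been low in KO Ang II, and its value there is not known.

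Fmr1-201, the longest of the listed coding isoforms, with both segments, was lower and overlapped between groups: 0.601 ± 0.164 FPKM in WT saline, 0.411 ± 0.283 in WT Ang II, with 0.557 ± 0.265 in KO Ang II (SD, n = 5). In WTAng_II519 it rested on 1 read (0.00364 FPKM). Among the 3 listed coding isoforms, those with the 63-nt exon made up 51.6% to 78.7% (median 63.4%) in WT saline and 96.4% to 98.7% (median 97.6%) in WT Ang II. Those with the 75-nt stretch made up 35.1% to 72.4% (median 63.8%) in WT saline and 1.30% to 11.5% (median 8.67%) in WT Ang II. Both shares separated the WT groups without overlap, in the contrast on which Fmr1 was selected. Each share is what remains after the isoform that lacks the segment, so both separations restate isoform levels already given. How often such shares separate for other genes was not counted, and nothing further is read from them. In FPKM, transcripts with the 75-nt stretch summed to 1.53 ± 0.378 in WT saline and 0.565 ± 0.328 in WT Ang II.

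Of the other listed Fmr1 transcripts, both are annotated as retained introns. Fmr1-213 was at 0.829 ± 0.333, 0.556 ± 0.247 and 0.484 ± 0.123 FPKM in saline WT, Ang II WT and Ang II KO mice. Fmr1-212, listed for WT alone, was at 0.600 ± 0.342 and 0.402 ± 0.255. The other 8 annotated Fmr1 transcripts are not listed for any group. The annotated start of Fmr1-202 is X 68678817 and that of Fmr1-201 X 68678541, and both end at 68717963, so the isoforms also differ at their 5′ end.

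**Figure D3:**
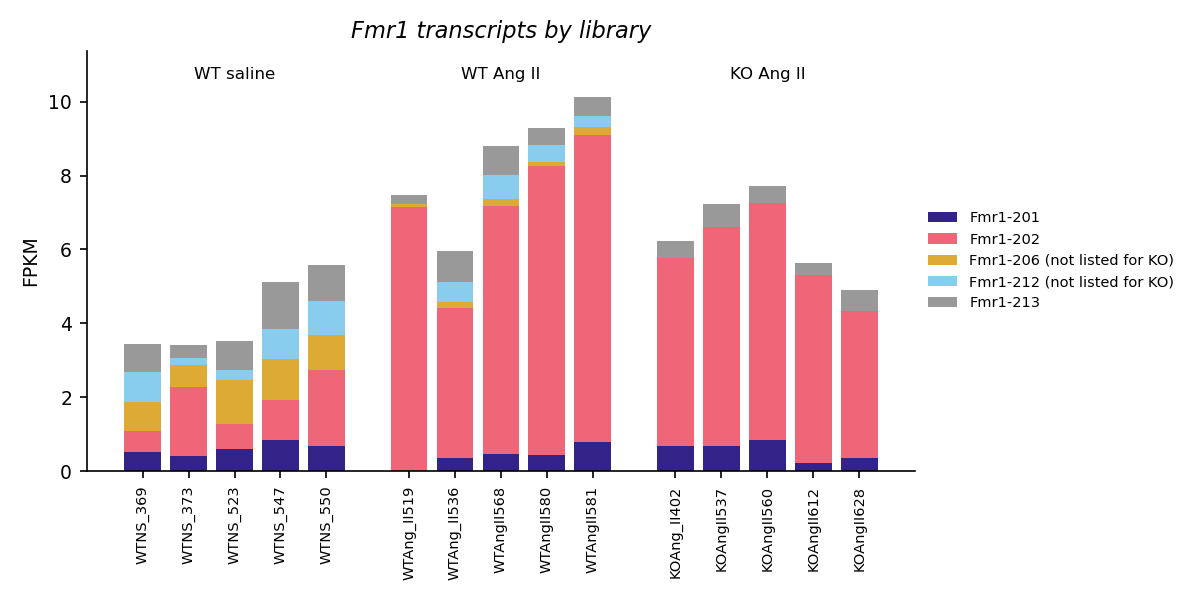
FPKM (y axis) of each listed Fmr1 transcript, stacked per library (x axis), in the 3 groups. Fmr1-202 fills most of each bar in the 10 Ang II libraries (3.98 to 8.29 FPKM) and 0.571 to 2.06 FPKM in WT saline, and Fmr1-206 and Fmr1-212 are not listed for KO Ang II.

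Macrophage markers were among several marker lists that moved with the WT contrast in which Fmr1 stood apart. All 9 macrophage markers had a higher mean in WT Ang II than in WT saline, and their summed level was 242 to 361 FPKM in WT saline, from 372 to 518 in WT Ang II, without overlap, and 267 to 551 in KO Ang II. None of the 9 was at 0 in a group. Means were also higher in WT Ang II for 8 of 8 fibroblast, 9 of 10 contractile, 7 of 8 endothelial and 9 of 10 intestinal markers. Fewer were higher among brown adipocyte (1 of 8), white adipocyte (1 of 6), sympathetic neuron (2 of 10) and skeletal muscle (0 of 7) markers. Schwann cell markers had 4 of 6 higher. The summed levels of these other lists overlapped between the WT groups. The part of any of these lists in the Fmr1 result was not tested. Without the 2 WT Ang II libraries with intestinal transcripts, the Fmr1 difference between the WT groups was 0.70, again a description.

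No difference of the Fxr1 gene sum passed the threshold. Its sum was 17.6, 24.9, 17.8, 19.5 and 18.6 FPKM in WTNS_369, WTNS_373, WTNS_523, WTNS_547 and WTNS_550, with a mean of 19.7 ± 3.0001 (SD, n = 5). In WTAng_II519, WTAng_II536, WTAngII568, WTAngII580 and WTAngII581 it was 23.0, 17.5, 20.8, 18.1 and 19.6, with a mean of 19.8 ± 2.21. In KOAng_II402, KOAngII537, KOAngII560, KOAngII612 and KOAngII628 it was 18.8, 19.3, 15.5, 17.99 and 14.01, with a mean of 17.1 ± 2.27. WTNS_373 was the highest of all and KOAngII628 the lowest. The difference between the WT groups was 0.01.

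Most Fxr1 RNA was the short isoform Fxr1-208, whose coding sequence of 1617 nt lacks the 87-nt, 81-nt and 92-nt segments. It was at 15.5 ± 3.05, 16.0 ± 1.79 and 14.3 ± 2.10 FPKM in saline WT, Ang II WT and Ang II KO mice (SD, n = 5), and held 78.5%, 80.8% and 83.2% of the gene. The share did not separate KO Ang II from WT Ang II (2.42 percentage points, exact permutation test, p = 0.183, adjusted 0.365). Fxr1-201, the isoform of 2031 coding nt with the 81-nt exon, was a small part: a median of 0.937% of Fxr1 in WT saline, 2.39% in WT Ang II, with 2.89% in KO Ang II. Its highest values were 1.91 FPKM in WTAngII580, 1.42 in KOAng_II402 and 1.21 in WTNS_547. Skeletal muscle markers summed to 167, 29.7 and 2.07 FPKM in these 3 libraries and to 220 in WTNS_523, where Fxr1-201 was at 0.406. Their part in the level of Fxr1-201 was not tested.

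Fxr1-204 holds the 92-nt exon without the 81-nt exon. It was at 3.36, 3.34, 1.29, 1.67 and 4.92 FPKM in WTNS_369, WTNS_373, WTNS_523, WTNS_547 and WTNS_550. In WT Ang II it was at 2.22, 1.09, 1.30, 0.915 and 2.68 in WTAng_II519, WTAng_II536, WTAngII568, WTAngII580 and WTAngII581. In KOAng_II402, KOAngII537, KOAngII560, KOAngII612 and KOAngII628 it was at 1.01, 0.814, 0.945, 0.927 and 1.00. Every KO Ang II library was below every WT saline library, and the KO Ang II values lay close together. In that comparison 1.31% of all fitted transcripts had groups without overlap. The difference from WT saline was -0.93 (SE 0.26) and did not pass over all transcripts (limma adjusted p = 0.502). Against WT Ang II it was -0.40 (adjusted p = 0.771). Transcripts with the 92-nt exon made up a median of 14.7%, 12.7% and 8.45% of Fxr1 in saline WT, Ang II WT and Ang II KO mice, with ranges that overlapped (9.49% to 27.3%, 7.08% to 16.1% and 7.57% to 13.0%).

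The other Fxr1 transcripts were low. Fxr1-206, with the 87-nt stretch, had means of 0.311, 0.832 and 0.659 FPKM in saline WT, Ang II WT and Ang II KO mice, and in WT saline ranged from 1 to 108 reads. Fxr1-205, a short partial coding model, had means of 0.507, 0.610 and 0.588. Dnajc19, a mitochondrial import gene on the opposite strand, shares 178 exon bases with Fxr1. Whether the authors counted by strand is not given in the sources used here, so reads in those bases cannot be told apart. Dnajc19 levels overlapped between the groups, at 8.04 to 13.8, 9.03 to 16.8 and 7.99 to 15.6 FPKM.

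Fxr2 was the most abundant and the least variable member. Its sum was 34.0, 32.4, 34.3, 40.1 and 36.4 FPKM in WTNS_369, WTNS_373, WTNS_523, WTNS_547 and WTNS_550, a mean of 35.4 ± 2.98 (SD, n = 5). In WTAng_II519, WTAng_II536, WTAngII568, WTAngII580 and WTAngII581 it was 32.9, 37.1, 35.1, 32.6 and 33.5, a mean of 34.3 ± 1.88. In KOAng_II402, KOAngII537, KOAngII560, KOAngII612 and KOAngII628 it was 30.8, 34.2, 30.8, 33.0 and 27.4, a mean of 31.3 ± 2.62. The coefficient of variation was 5.48% to 8.43% within groups, against 18.1% to 25.03% for Fmr1, and the difference between the WT groups was -0.04.

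One coding transcript, Fxr2-201 (2022 coding nt), made up most of the gene, at 30.2 ± 3.22, 27.9 ± 2.03 and 27.2 ± 3.13 FPKM in saline WT, Ang II WT and Ang II KO mice. Its share was 85.1%, 81.6% and 86.8%, and the KO Ang II share was 5.24 percentage points above that of WT Ang II (exact permutation test, p = 0.143, adjusted 0.365). The rest were 4 short noncoding models, of which Fxr2-202, Fxr2-203 and Fxr2-205 had group means between 0.354 and 1.41 FPKM.

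Fxr2-204, a noncoding processed transcript of 508 nt, was the member transcript with no overlap between KO Ang II and WT Ang II. It was at 1.96, 6.21, 2.38, 5.16 and 2.78 FPKM in WTAng_II519, WTAng_II536, WTAngII568, WTAngII580 and WTAngII581. In KOAng_II402, KOAngII537, KOAngII560, KOAngII612 and KOAngII628 it was at 1.85, 0.908, 1.87, 0.991 and 1.76. All KO Ang II libraries lay below all WT Ang II libraries, by a narrow gap. The difference was -0.86 (SE 0.28) and did not pass (limma adjusted p = 0.761). Across all transcripts, 0.955% had groups without overlap in this comparison and 0.00344% passed. WT saline, at 1.79 to 5.26 FPKM, overlapped both.

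Fxr2-204 is also the member transcript that the KO saline table lists. It was at 4.49, 4.83, 3.83, 2.18 and 1.58 FPKM in KONS_387, KONS_412, KONS_555, KONS_608 and KONS_627, a mean of 3.38 ± 1.43 (SD, n = 5). KO saline overlapped KO Ang II (0.908 to 1.87) and WT saline. Of the 1170 transcripts that table shares with the KO Ang II table, 15.7% had no overlap between the 2 groups, and of the 1067 it shares with the WT saline table, 5.90% had none. No test was run on that table. The titles and genotype labels of these 5 libraries say KO, and their descriptions say WT; the titles were followed.

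The Cyfip1 gene sum overlapped between all groups, and no difference of it passed. Its sum was 25.6, 22.9, 18.8, 29.0 and 26.0 FPKM in WTNS_369, WTNS_373, WTNS_523, WTNS_547 and WTNS_550, a mean of 24.5 ± 3.84 (SD, n = 5). In WTAng_II519, WTAng_II536, WTAngII568, WTAngII580 and WTAngII581 it was 27.8, 29.3, 29.5, 22.7 and 26.8, a mean of 27.2 ± 2.76. In KOAng_II402, KOAngII537, KOAngII560, KOAngII612 and KOAngII628 it was 25.4, 23.6, 27.2, 28.5 and 23.5, a mean of 25.6 ± 2.20. The lowest value in FPKM was that of WTNS_523, though its 7158 reads lay within the WT saline range of 6080 to 8344. In WTNS_523, 5864 reads were on Cyfip1-201 (6440 nt) and 502 on the shorter Cyfip1-207 (3849 nt), and FPKM corrects for transcript length. The difference between the WT groups was 0.16, with 0.07 without WTNS_523 and 0.05 with marker means as covariates.

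The Cyfip1 transcript with the highest level was not the annotated coding one. Cyfip1-207, a retained-intron model of 3849 nt with 28 exons that ends before the last exons of the gene, was at 15.2 ± 7.58, 19.3 ± 2.15 and 18.6 ± 1.19 FPKM in saline WT, Ang II WT and Ang II KO mice. Cyfip1-201, which codes for the full protein over 3759 nt, was at 7.42 ± 3.70, 6.47 ± 0.935 and 5.86 ± 1.33. Cyfip1-207 held 71.8% of the gene in WT Ang II, with 72.7% in KO Ang II (0.904 percentage points apart, exact permutation test, p = 0.706, adjusted 0.706).

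One library reversed that order. In WTNS_523 Cyfip1-207 was at 1.97 FPKM, where the other WT saline libraries had 16.8 to 20.99. In the same library Cyfip1-201 was at 13.8 FPKM against 4.28 to 6.91, and the retained-intron model Cyfip1-205 at 2.17 against 0.210 to 0.632. WTNS_523 thus had 502 reads on Cyfip1-207 and 5864 on Cyfip1-201. The share of Cyfip1-207 was 11.9% there, and the WT saline mean of 60.7% ± 27.4 includes it.

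Among the low Cyfip1 transcripts, Cyfip1-211 had means of 0.733, 0.590 and 0.559 FPKM in saline WT, Ang II WT and Ang II KO mice, and Cyfip1-210, which missed the transcript filter, 0.308, 0.501 and 0.626. Nipa2, a magnesium transporter gene on the opposite strand, shares 1316 exon bases with the 3′ end of Cyfip1, and reads there cannot be told apart without strand. Nipa2 overlapped between the groups, at 8.14 to 12.0, 10.1 to 13.3 and 8.94 to 12.9 FPKM.

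**Figure D4:**
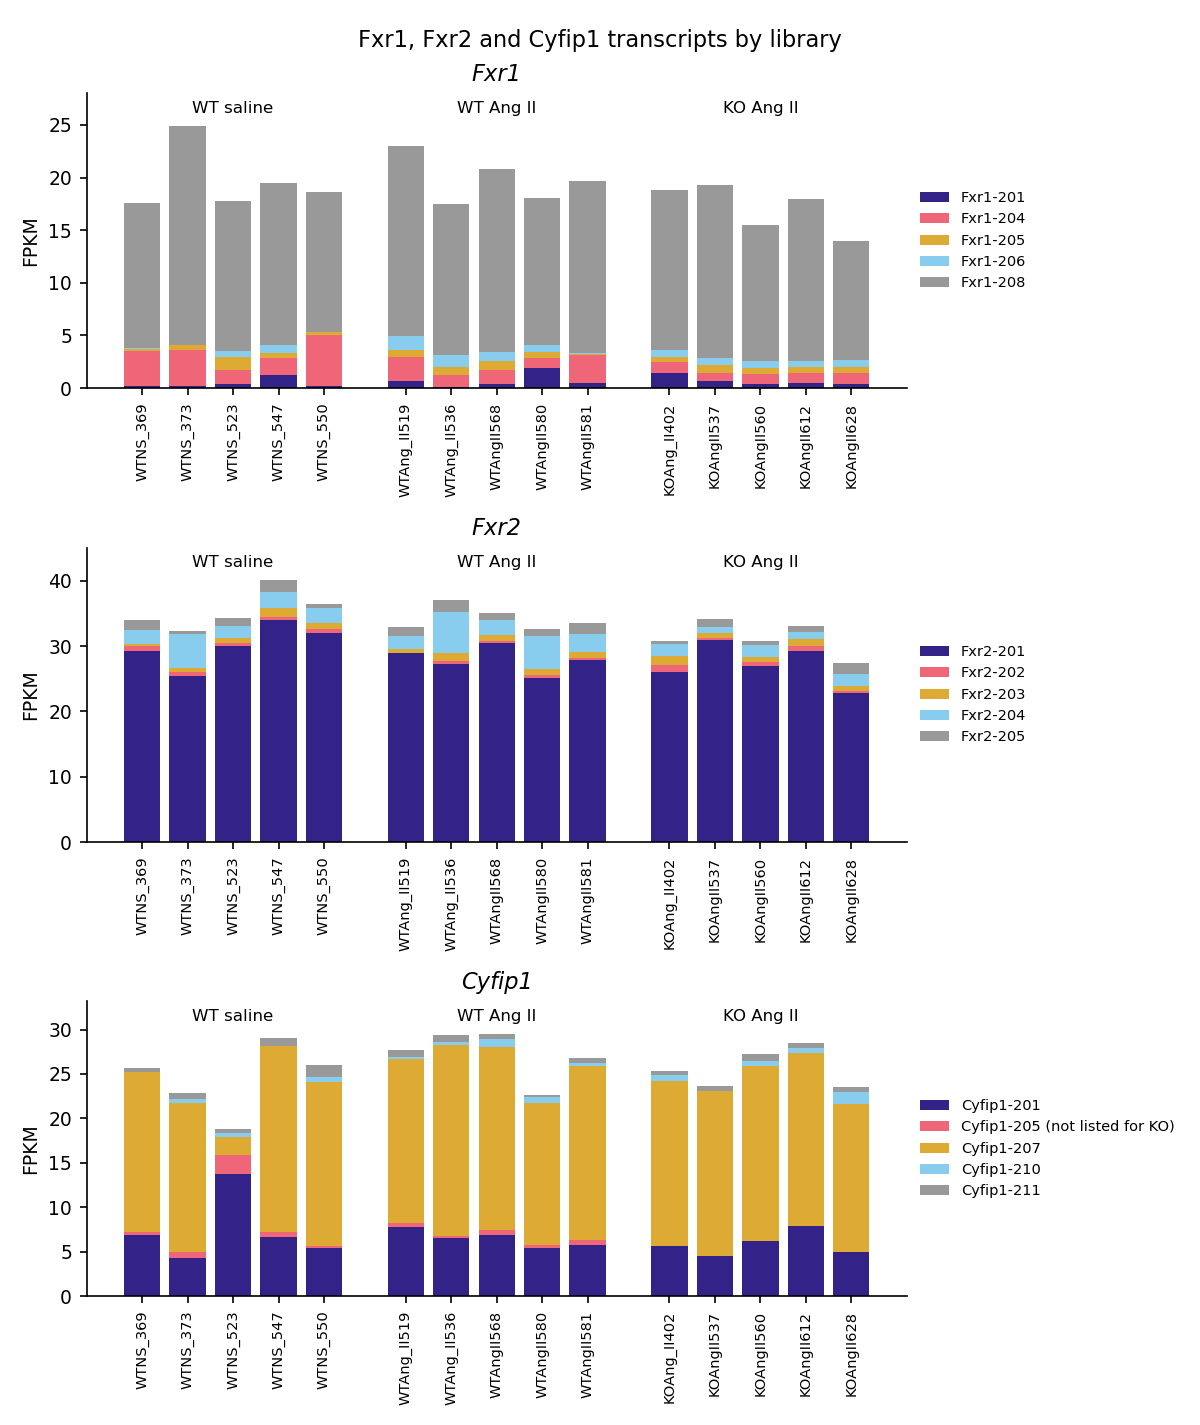
FPKM (y axis) of each listed transcript of Fxr1, Fxr2 and Cyfip1, stacked per library (x axis). Fxr1-208 and Fxr2-201 lead in all 15 libraries, and in WTNS_523 Cyfip1-201 (13.8 FPKM) takes the place that Cyfip1-207 has in the other 14.

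The plot of all differences sets the members side by side. At the gene level the 8 intervals of the tested comparisons include 0 in 7 cases, the exception being Fmr1 between KO Ang II and WT saline, whose adjusted p missed the threshold. At the transcript level, Fmr1-202 lies apart from the rest in both comparisons with WT saline.

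**Figure D5:**
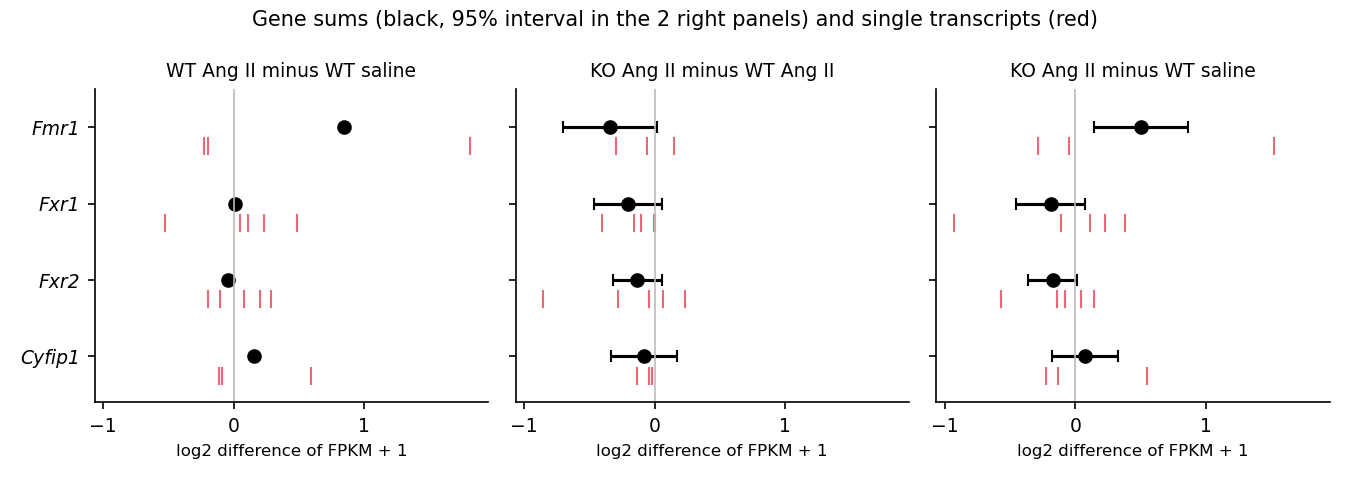
Log2 difference of FPKM + 1 (x axis) of each member (y axis) in the 3 comparisons. Black points are gene sums, with 95% intervals in the 2 tested comparisons, and red ticks are the 16 fitted transcripts. The red tick farthest right is Fmr1-202, at 1.81 in WT Ang II minus WT saline and 1.52 in KO Ang II minus WT saline.

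The genes with which the members work were read from 6 lists with 91 genes, of which 84 were tested. In no comparison did a gene of these lists pass limma over all genes (0 of 84 in each of the 3, with 6, 7 and 6 genes at an unadjusted p under 0.05 between the Ang II groups, between KO Ang II and WT saline, and between the WT groups). The smallest adjusted p were 0.594, 0.356 and 0.941. In the WT contrast 43 differences were positive and 41 negative, with a median of 0.00655 beside 0.0144 over all genes. Between the Ang II groups 39 were positive and 45 negative, with a median of -0.0118 beside -0.00763 over all genes. Between KO Ang II and WT saline 39 were positive and 45 negative as well, with a median of -0.0131 beside 0.0159 over all genes. Over all genes, 52.6% of differences were positive in the WT contrast, 48.6% between the Ang II groups and 52.7% between KO Ang II and WT saline. The single lists below are small, and their counts of directions were not tested.

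The WAVE complex, the actin-side partners of CYFIP1, had 8 of 11 genes tested, with 4 positive and 4 negative differences in each comparison. Nckap1, which pairs with CYFIP1 in the complex, was at 53.0 ± 4.17, 51.9 ± 5.14 and 56.4 ± 6.35 FPKM in saline WT, Ang II WT and Ang II KO mice. Brk1, the smallest subunit, was at 65.2 ± 4.10, 65.6 ± 4.85 and 64.9 ± 6.98. Wasf2, the WAVE protein itself, was at 30.9 ± 3.70, 36.8 ± 6.54 and 30.6 ± 5.27, and Abi1 at 28.3 ± 6.46, 29.1 ± 6.13 and 29.0 ± 6.23. Rac1, the GTPase that switches the complex on, was at 75.1 ± 11.8, 65.3 ± 27.9 and 74.6 ± 35.9. Cyfip2, the paralog of Cyfip1, was much lower and spread widely, at 0.638 to 6.82 FPKM in WT saline, from 0.303 to 2.81 in WT Ang II and 1.09 to 9.91 in KO Ang II.

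On the translation side, 19 of 20 granule partners of FMRP were tested, with 8 positive and 11 negative differences in the WT contrast and 9 and 10 between the Ang II groups. Ybx1, a cold-shock protein that packages mRNA, was at 191 ± 11.5, 186 ± 6.46 and 171 ± 10.8 FPKM (difference between the Ang II groups -0.12, limma adjusted p = 0.673), and Pabpc1, the poly(A)-binding protein, at 79.1 ± 12.4, 77.3 ± 11.5 and 84.4 ± 12.4. Translation initiation factors and their regulators, taken as 1 list, had all 13 genes tested. In the WT contrast 4 differences were positive and 9 negative (median -0.10), and between the Ang II groups 8 and 5 (median 0.08). Eif4g2 and Eif4b led this list, at 83.5 to 89.6 and 77.6 to 90.8 FPKM by group mean.

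The list of genes tied to the phosphorylation of FMRP had all 11 tested, with differences from -0.21 to 0.16 between KO Ang II and WT Ang II. Ppp2r1a, the scaffold of phosphatase 2A, was at 66.2 ± 10.7, 65.9 ± 4.45 and 69.9 ± 5.64 FPKM, and Csnk2b, a casein kinase 2 subunit, at 52.8 ± 4.71, 50.4 ± 5.01 and 52.5 ± 3.85. Of 16 known target mRNAs of FMRP or FXR1, 13 were tested. In the WT contrast 10 differences were positive and 3 negative (median 0.13), beside 52.6% positive over all genes. Between the Ang II groups 6 were positive and 7 negative (median -0.19), beside 48.6% positive over all genes. Sod1 and App, the targets with the highest levels, had limma adjusted p of 0.808 and 0.692 between the Ang II groups. Of 20 other RNA-binding proteins, 12 were positive and 8 negative in the WT contrast, and 6 and 14 between the Ang II groups (median -0.14); Hnrnpa2b1, their most abundant, was at 165 ± 10.7, 167 ± 11.4 and 168 ± 15.8 FPKM.

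The genes whose levels ran most alike with each member over the 15 libraries are given as a description, by Pearson's r of log2(FPKM + 1), over libraries that share depth, tissue mix and groups. With Fmr1 they were Zfp444 (r = 0.80), Cuedc1 (0.80), Folr2 (0.78), Klhl26 (0.77) and Lsm12 (0.76). Folr2, the folate receptor of resident macrophages, was at 8.91 ± 3.11, 17.5 ± 2.29 and 10.4 ± 2.57 FPKM in saline WT, Ang II WT and Ang II KO mice. Lsm12, an RNA-binding protein, was at 5.21 ± 2.77, 10.9 ± 1.15 and 10.8 ± 1.50. These genes were picked for running alike with the Fmr1 sum, so nothing is read from their group means.

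With Fxr1 they were Morc4 (r = 0.78), Trp53bp1 (0.76), Phldb1 (0.71), Atp23 (0.71) and Kif1b (0.71). Fxr2 had Plekhf1 (0.89), Abhd17b (0.88), Polg2 (0.88), Iqcb1 (0.87) and Fbxo28 (0.82). Each had its lowest group mean in KO Ang II, as Fxr2 had, but they were picked for running alike with Fxr2, so nothing is read from that. Cyfip1 had Stag1 (0.95), a cohesin subunit, Rrbp1 (0.92), a ribosome-binding protein of the endoplasmic reticulum, Zbtb1 (0.91), St6gal1 (0.87) and Itga11 (0.85). Rrbp1 was at 63.1 ± 16.0, 75.6 ± 13.5 and 65.8 ± 13.4 FPKM.

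Among the members themselves, r over the 15 libraries was 0.02 for Fmr1 and Fxr1, -0.03 for Fmr1 and Fxr2, 0.41 for Fmr1 and Cyfip1, 0.38 for Fxr1 and Fxr2, 0.09 for Fxr1 and Cyfip1 and 0.35 for Fxr2 and Cyfip1.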

How the data were processed

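RNA of mouse abdominal aorta was sequenced from 20 libraries, made per the labels' protocols with TRIzol and a NEBNext Ultra RNA kit. The authors deposited FPKM per transcript; bcl2fastq, FastQC, fastp and mm10 are named in the submitters' processing notes, and the aligner, the counting program and its use of strand were not given in the sources used here. Values times transcript length fell on whole reads (98.7% to 99.1% of values below 50 reads, within 0.05 reads), which gave 59.0 to 74.4 megareads per library in the 15 libraries used. KO saline, whose table lists only part of each library, was left out of the fits. FPKM of transcripts annotated in GENCODE M21 were summed per gene, with unlisted transcripts at 0; the authors' assembled transcripts without gene names (12.2% to 15.8% of FPKM) were left out. Genes with a transcript in both tables and a mean of at least 1 FPKM were tested with limma 3.58.1 (trend and robust) in R 4.3.3 on log2(FPKM + 1), with Benjamini-Hochberg adjustment over 12643 genes and a threshold of 0.05. The pseudocount shrinks differences of low genes. Transcript shares were compared with an exact permutation test (scipy 1.17.1). The scripts were tested on simulated data. Members, lists and tests were chosen with earlier results of these data known; named are the members, their listed transcripts, the 2 most abundant genes per list, genes that pass, and the 5 genes most like each member. Nckap1, Abi1, Wasf2 and Cyfip2 were added as WAVE subunits; they and the antisense genes were named after values were seen.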

Additional observations from a re-analysis of the deposited data

Results flagged for a closer look

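In 69 groups of 5 libraries (each member and each of its listed transcripts), the library farthest from its group was set against Dixon's critical value of 0.71, and 9 groups passed it. Chance at 1 in 20 gives 3.45 for independent groups. These groups are not independent, since a gene sum holds its own transcripts and isoforms of a gene overlap, so no excess is read from the count. Of the 9 groups, 3 are the Cyfip1 isoforms of WTNS_523 among WT saline libraries: Cyfip1-207 at 1.97 FPKM (others 16.8 to 20.99), Cyfip1-201 at 13.8 (others 4.28 to 6.91) and Cyfip1-205 at 2.17 (others 0.210 to 0.632).

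Another 3 belong to WTNS_373: Fxr1 at 24.9 FPKM (other WT saline libraries 17.6 to 19.5), its main transcript Fxr1-208 at 20.8 (others 13.3 to 15.4) and Fxr2-204 at 5.26 (others 1.79 to 2.53). Fxr1-201, the isoform with the 81-nt exon, was high in WTNS_547 at 1.21 FPKM (other WT saline libraries 0.154 to 0.406) and in KOAng_II402 at 1.42 (other KO Ang II libraries 0.364 to 0.648). Cyfip1-211 was high in KOAngII560 at 0.746 FPKM (other KO Ang II libraries 0.484 to 0.531).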

How the results depend on the processing

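No gene-level difference of a member passed the threshold in any of the alternatives run for the 2 tested comparisons. Between KO Ang II and WT Ang II, leaving out 1 library gave -0.44 to -0.27 for Fmr1, -0.25 to -0.14 for Fxr1, -0.16 to -0.08 for Fxr2 and -0.14 to -0.05 for Cyfip1, and Cyfip1 turned to 0.0499 among libraries with intestinal transcripts. Between KO Ang II and WT saline, Fmr1 ranged from 0.44 to 0.59 with 1 library left out and from 0.37 to 1.01 under the other settings, and Cyfip1 from -0.0118 (without WTNS_523) to 0.14, with -0.0154 by voom on recovered reads. Between the WT groups, Fmr1 was 1.25 with only transcripts listed for all 15 libraries, 1.11 by voom and 0.78 to 0.94 with 1 library left out; under the other settings Fxr1 was -0.01 to 0.08, Fxr2 -0.09 to -0.01 and Cyfip1 0.05 to 0.24. Transcript Fmr1-202, KO Ang II against WT saline, ranged from 1.40 to 1.64 with 1 library left out and from 1.50 to 2.13 (pseudocount 0.1) under the other settings. Its share, KO Ang II minus WT Ang II, turned to 2.50 percentage points with unlisted transcripts included, and that of Cyfip1-207 ranged from -0.590 (without KOAngII537; -0.132 without WTAng_II519) to 2.02 with 1 library left out. The causes were not tested.

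Over all genes, KO Ang II against WT saline had 13 calls, 30 with array quality weights, 7 without KOAngII537, 8 without WTNS_547 and 0 with marker means as covariates. KO Ang II against WT Ang II had 0 calls, 6 among libraries with intestinal transcripts, 7 without WTAngII580 and 2 without WTAngII581. The WT contrast had 0, with 2 among libraries without intestinal transcripts and 1 without WTNS_550. No such split was possible for KO Ang II against WT saline, since all KO Ang II and no WT saline libraries carry them. No paired analysis was possible because no animal number is shared between groups. Depth limits the low transcripts: Cyfip1-210 in WT saline rested on 1 to 18 reads.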
